A study of Mus musculus with 4 samples.

Results

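The transcription factor MYC and 44 further genes of nucleolar ribosome production, 45 in all, were followed through naive mouse CD4+ T cells that were activated with or without an inhibitor of the protein kinase CK2. The genes were chosen by name for their known roles, with earlier results of these data known. All 45 were found among the 37583 features of the deposited count tables. Naive CD4+ T cells came from spleens of C57BL/6 mice, and plate-bound antibodies to CD3 and CD28 activated them. All 4 cultures received IL-6, IL-23 and IL-1β, and antibodies against IFN-γ and IL-4 (the labels call this state aTh17), so every control carries the same stimulation. One culture also received 1.5 µM DMAT and another 1 µM CX4945, 2 inhibitors of CK2, for 24 h, and the labels name a control culture for each inhibitor. Each of these 4 groups is 1 library, and the labels do not say how many animals or cultures lie behind it.

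Ribosomes are built in the nucleolus. RNA polymerase I copies ribosomal DNA into a long precursor, small nucleolar ribonucleoproteins (snoRNPs) mark bases on it for modification, and large assembly machines cut and fold it into the small and large subunits. MYC is a protein that T cells switch on when their antigen receptor is engaged, and genes of this nucleolar machinery are among its best known targets. CK2 phosphorylates many nucleolar proteins, and the comparison asks whether inhibitors of the kinase altered the messenger RNA of this machinery.

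The libraries held 2056635 to 2772525 exon reads, with 9331 to 9661 genes at 10 reads or more. The T cell gene Cd4 had 546 to 699 reads in each. Of genes that mark other spleen cells, the myeloid list summed to 0 to 2 reads in each library, the NK and erythroid lists to 0 in all, and Cd8a and Cd8b1 to 6 to 10. Of B cell genes, Ighm (the IgM heavy chain) had 84 to 142 reads, while Cd79b and Ms4a1 had 0 in all 4 libraries. Levels are given below as CPM, a gene's exon reads per 1000000 exon reads of its library, after scaling of the library sizes with the TMM method. A ratio of 2 libraries is given with its exact conditional 95% interval, which covers counting error only. With 1 library in each group such a ratio has no replicate check, and it compares those libraries.

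The list was abundant in all 4 libraries, and no member was near the limit of detection. The lowest count of any member was 131 reads and the highest 13816. Together the 45 genes held 2.451% of all exon reads in the control for DMAT (Clopper-Pearson 95% interval 2.433 to 2.470) and 2.341% with DMAT (2.322 to 2.359). In the other experiment they held 2.448% in the control (2.428 to 2.468) and 2.361% with CX4945 (2.340 to 2.382). The controls were nearly level, each inhibitor library was below both of them, and its interval does not overlap theirs. These intervals cover counting error only, and the libraries differ by more than that (chi-square per degree of freedom 2.56 to 5.63). With 1 library in each group the gap has no replicate check, and its cause was not tested. Without Npm1 and Ncl, which were set aside after their values were seen because they hold 36.0 to 39.4% of the members' reads, the other 43 genes held 1.486%, 1.457%, 1.542% and 1.510% in the same order. The share was again lower with an inhibitor within each pair, but there the intervals overlap (1.471 to 1.500 beside 1.442 to 1.472, and 1.526 to 1.558 beside 1.494 to 1.527), and the CX4945 library stood above the control for DMAT.

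Per kilobase of exon, the scale on which genes can be compared with each other, the members span about 2 orders of magnitude. Npm1, which encodes the nucleolar chaperone nucleophosmin, was highest at 1877, 1646, 1690 and 1537 CPM per kb (control for DMAT, DMAT, control for CX4945, CX4945). Ncl, which encodes nucleolin, followed at 568, 531, 550 and 539. Polr1e, a subunit of RNA polymerase I, was lowest at 15.3, 14.7, 14.7 and 17.3. The exon length used is that of the deposited tables, which counts all annotated exons of a gene (8257 bases for Ncl), so a gene with long alternative exons is placed too low. Within a gene the libraries lay close together, as the plot of levels shows.

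**Figure D1:**
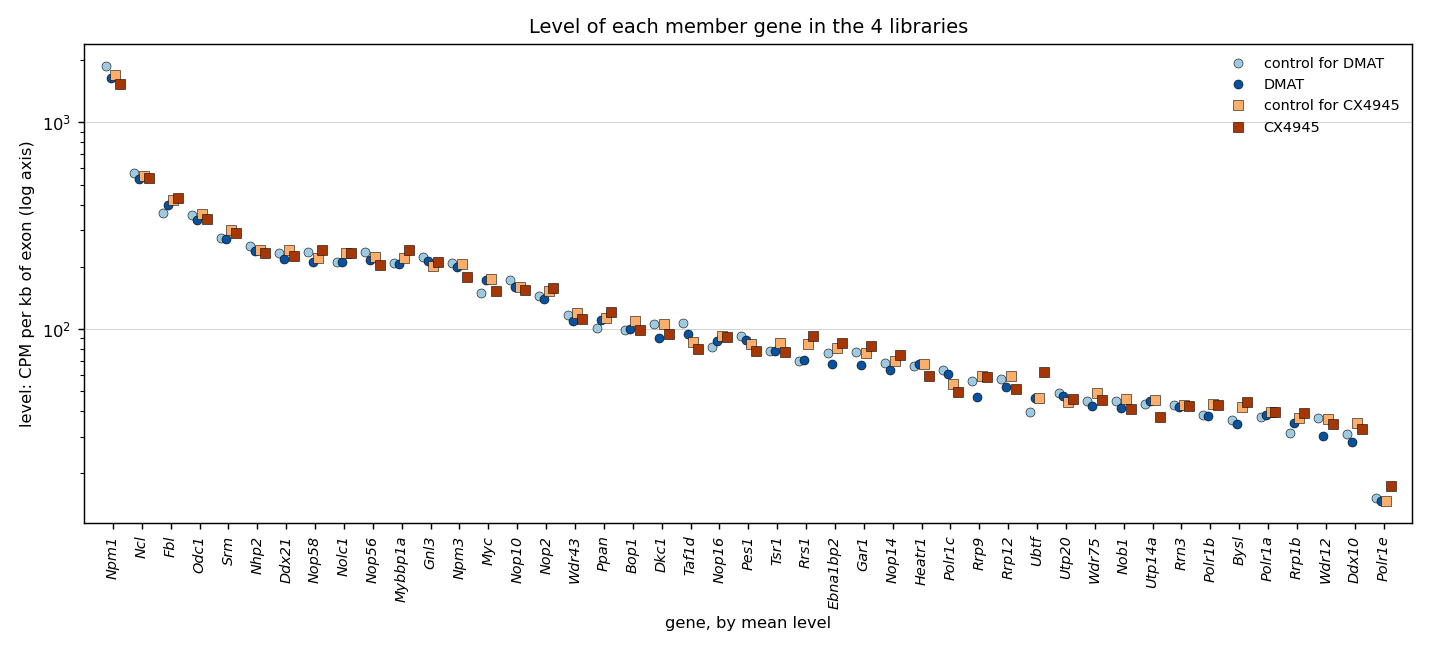
Level of each of the 45 genes in the 4 libraries, in CPM per kb of exon on a log axis, with genes in order of their mean level; circles are the DMAT experiment and squares the CX4945 experiment, pale for controls and dark for inhibitors. The 4 points of a gene lie close together beside the range between genes, from 1877 for Npm1 down to 14.7 for Polr1e.

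No member differed by 2-fold or more in either pair. With DMAT 0 of 45 reached that size, where 2.37% of 9649 genes with at least 20 reads in the pair did, and with CX4945 0 of 45, where 1.78% of 9358 genes did. Among genes with at least 100 reads in the pair, a depth closer to that of the members, the shares were 0.582% and 0.391%. With DMAT 0 members were at least 25% higher or at least 20% lower than the control, where 13.5% and 13.3% of all genes were (9.02% and 9.77% with 100 reads). With CX4945 1 member was past these bounds. That gene was Ubtf, which encodes UBF, the factor that holds ribosomal DNA open for RNA polymerase I. In the CX4945 pair 12.4% of all genes passed the upper bound and 13.4% the lower one, and with 100 reads 7.79% and 8.68% did.

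Small values leaned downwards. With DMAT 33 of the 45 ratios were below 1, against 50.0% of all genes, and with CX4945 29 were, against 50.6%. The median log2 ratio of the members was -0.06 with DMAT and -0.04 with CX4945, and that of all genes tested was 0.00 in each. Both inhibitors had a ratio below 1 at 23 members (26.7% of all genes), both above 1 at 6 (25.9%), and opposite sides at 16 (47.4%). Between the 2 untreated libraries the members differed by as much: 17 of 45 were lower in the control for CX4945 than in that for DMAT (51.3% of all genes), with a median of 0.05. The size of the lean changed with the control used. Set against the other inhibitor's control, 38 members were below 1 with DMAT (median -0.09) and 23 with CX4945 (median -0.01). The lean was thus larger with DMAT and smaller with CX4945. Such a ratio also holds the difference between the experiments, so it is no check of the values within a pair.

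**Figure D2:**
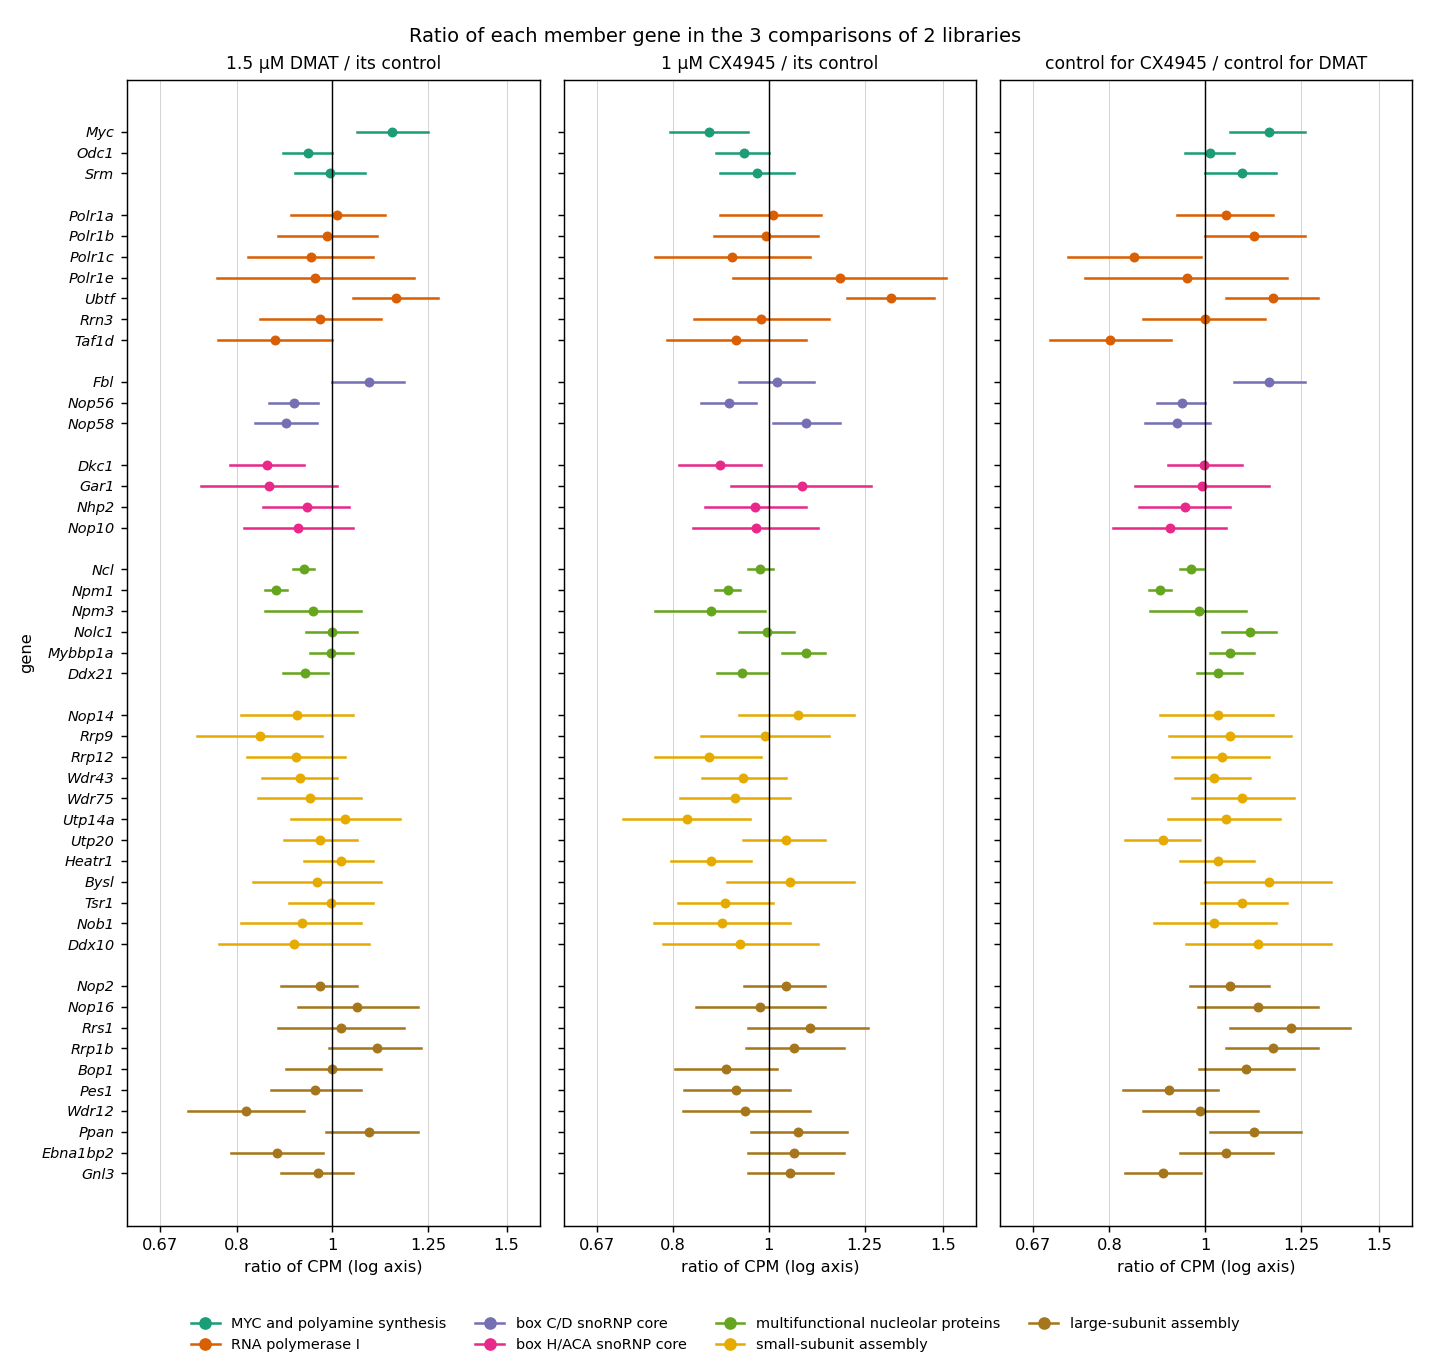
Ratio of CPM for each of the 45 genes with its exact 95% counting interval, on a log axis, in the DMAT pair (left), the CX4945 pair (middle) and between the 2 controls (right), coloured by the role of the gene. All points lie between 0.802 and 1.33. The spread in the right panel, where no inhibitor was added but the experiments differ, is of the same size as in the others.

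When both experiments were fitted together, no member passed the test. edgeR's quasi-likelihood test was run with the experiment as a block and Benjamini-Hochberg adjustment over 9262 genes. In it 0 of 45 members had an adjusted p under 0.05 (the lowest was 0.235). Of all genes 0.453% did (0.162% higher and 0.292% lower). Of the 3667 genes with at least 131 reads in every library, the lowest count of any member, 0.600% did. At an unadjusted p under 0.05 there were 3 members, Ubtf, Npm1 and Dkc1, where 7.09% of all genes passed. DESeq2 with the same block also called 0 members, but it called only 3 of all 9262 genes, so its 0 of 45 says little about the members. These fits have 1 residual degree of freedom and 15.4 prior degrees of freedom, so most of the spread assigned to a gene is borrowed from other genes, and nothing in the labels tells whether that spread is biological or technical.

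The joint 95% intervals show how large a shared effect each model leaves room for. In the edgeR fit all 45 intervals lay inside a 1.5-fold change in either direction, with bounds from 0.753-fold to 1.42-fold, and 33 lay between 20% lower and 25% higher. The other 12 reached past one of these bounds, as did 55.0% of the 3667 genes with at least 131 reads in every library, though many members are deeper than that minimum. DESeq2 gave wider limits, from 0.665-fold to 1.65-fold, and there the intervals of 4 members (Polr1e, Ubtf, Wdr12 and Ddx10) reached past 1.5-fold. The intervals that passed the lower bound were those of Dkc1, Wdr12, Rrp12, Taf1d, Rrp9, Npm3, Nob1, Utp14a, Ddx10 and Polr1c, and those that passed the upper one were of Ubtf and Polr1e. The estimate was under 0.1 in size on the log2 scale at 31 of the 45 genes. The share of other genes of that depth under this size was not counted, so the count does not set the members apart.

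**Figure D3:**
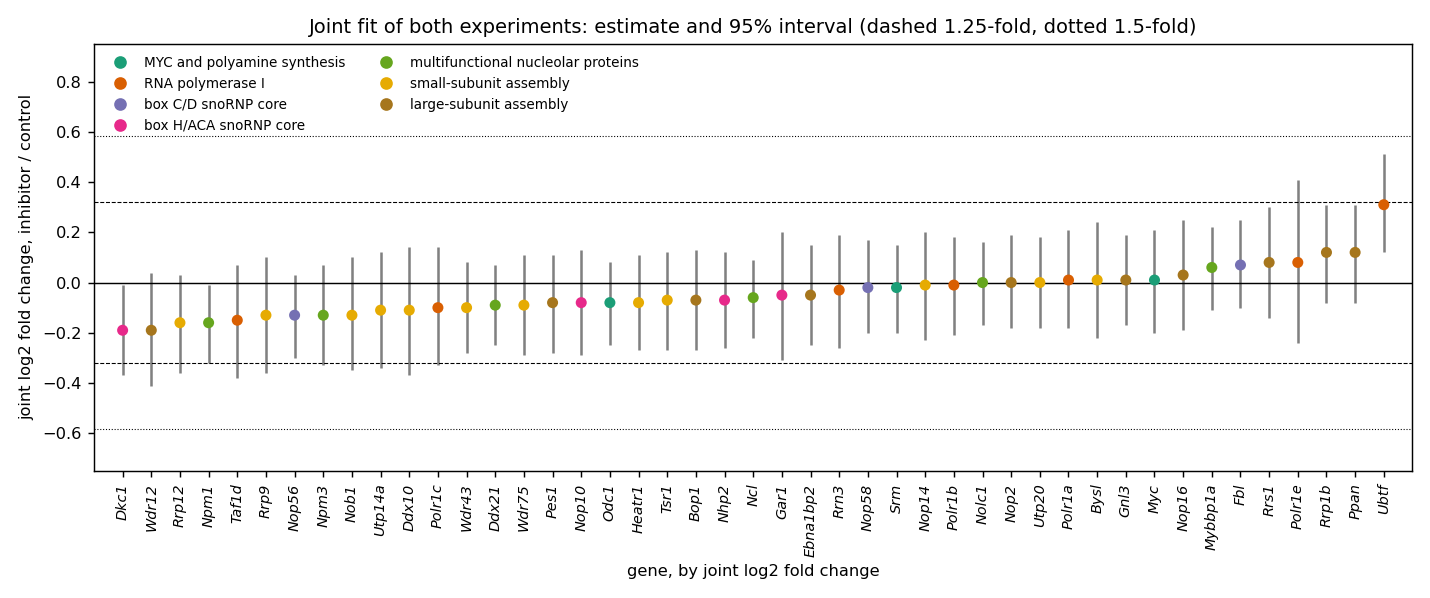
Joint log2 fold change of inhibitor over control for the 45 genes with its 95% interval from the edgeR fit, in order of size and coloured by role; dashed lines mark 25% higher and 20% lower, and dotted lines 1.5-fold. No interval reaches the dotted lines, and 3 of them, those of Dkc1, Npm1 and Ubtf, do not cross 0.

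Myc itself lies on chromosome 15 (mm9, 61816946 to 61821929). It was at 409 CPM in the control for DMAT, 471 with DMAT, 473 in the control for CX4945 and 412 with CX4945. The DMAT library and the control for CX4945 were thus the high ones, and the other two the low ones. The ratio was 1.15 with DMAT (lower bound 1.06) and 0.870 with CX4945 (0.794 to 0.953). The 2 untreated libraries differed by 1.16 (1.06 to 1.26), as much as either inhibitor library differed from its control. In the joint fit Myc did not pass (log2 0.01, interval -0.20 to 0.21, edgeR adjusted p = 0.997). The inhibitors differ in dose and experiment as well as in compound, so the difference between their values was not tested.

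Odc1 and Srm, textbook MYC targets, encode the enzymes that make putrescine and spermidine, polyamines that growing cells need in quantity. Odc1 was at 908, 858, 920 and 867 CPM (the order of libraries as for Myc), with ratios of 0.945 (0.892 to 1.00) and 0.943 (0.884 to 1.00). Both inhibitor libraries were below both controls. Srm was at 440, 438, 480 and 467 CPM, and its inhibitor libraries lay between the 2 controls or just below them. Neither passed the joint test (edgeR adjusted p = 0.902 and 0.982). Of Odc1's exon reads 52.4% mapped to a single place.

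MYC acts with its partner MAX on the sequence CACGTG, the E-box, a palindrome that reads the same on both strands. Promoter windows of 300 bases, 250 before and 50 after the RefSeq start site (GRCm38.p6, a later build than that of the count tables), were given for 38 of the 45 genes, with 46 windows since some have several starts. Those not in that table are Myc, Npm1, Fbl, Rrs1, Rrp12, Bop1 and Srm. The letters CACGTG occurred in the windows of 7 of the 38 (18.4%), against 12.8% of 6673 genes of the joint fit with a window and 8.09% of all 27025 genes in the table. Members had a median of 21 CpG per window and genes of the joint fit 22, against 7 over all windows. The 8 occurrences are shown with up to 12 bases on either side, 5′ to 3′ on the strand of the gene and with the E-box in capitals, because they are the letters through which MYC could act directly on these genes.
Rrn3, 215 bases before the start (chr16:13780472-13780501, plus strand): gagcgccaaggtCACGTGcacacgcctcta
Rrn3, 48 bases before the start (chr16:13780639-13780668, plus strand): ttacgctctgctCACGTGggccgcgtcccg
Nop2, 60 bases before the start (chr6:125131811-125131840, plus strand): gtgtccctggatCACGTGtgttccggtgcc
Pes1, from base 3 of the transcript (chr11:3963965-3963994, plus strand): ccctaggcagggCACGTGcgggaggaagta
Wdr43, from base 18 (chr17:71616220-71616249, plus strand): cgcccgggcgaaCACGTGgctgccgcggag
Tsr1, from base 25 (chr11:74898092-74898121, plus strand): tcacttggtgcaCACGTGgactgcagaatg
Utp20, from base 38 (chr10:88826765-88826789, minus strand): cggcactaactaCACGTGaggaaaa
Mybbp1a, from base 41 (chr11:72441355-72441376, plus strand): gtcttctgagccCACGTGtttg
The 7 genes with these letters had a median log2 ratio of -0.04 with DMAT and -0.03 with CX4945, and the 31 without had -0.08 and -0.03. Both inhibitors had a ratio below 1 at 4 of the 7 and at 16 of the 31, where 26.7% of all genes had. A match describes the letters alone and is no evidence of binding, and the windows miss E-boxes in first introns, where several MYC target genes carry them.

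RNA polymerase I and its factors were the group with the largest single value. Ubtf (chromosome 11, 102165874 to 102181056 in mm9) was at 261 CPM in the control for DMAT, 303 with DMAT, 306 in the control for CX4945 and 407 with CX4945. The CX4945 library stood above the other 3, and the DMAT library was level with the untreated library of the other experiment. The ratio was 1.16 with DMAT (1.05 to 1.28), 1.33 with CX4945 (1.20 to 1.47) and 1.17 between the controls (1.05 to 1.30). The joint log2 fold change was 0.31 ± 0.09 (SE; interval 0.12 to 0.51; edgeR adjusted p = 0.235), which did not pass, and 100% of its reads were unique. Without the block it was 0.10 when the CX4945 library was left out and 0.52 when the DMAT library was (adjusted p = 0.966 and 0.0506). It was 0.21 when the control for DMAT was left out and 0.44 when the control for CX4945 was (adjusted p = 1.000 and 0.999), so the estimate depends on which libraries enter.

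The catalytic subunits of the enzyme varied little. Polr1a, the largest subunit, was at 248, 251, 260 and 261 CPM, and Polr1b, the second largest, at 224, 221, 251 and 250. In each gene the inhibitor library was within 1 to 3 CPM of its own control, and the gap between the experiments was larger, with a ratio of 1.05 (0.936 to 1.17) and 1.12 (1.00 to 1.26) between the controls. Rrn3, which encodes TIF-IA and recruits the polymerase to the promoter, was at 155, 151, 155 and 152 CPM. Rrn3 is the gene with a pair of E-boxes in its window. Polr1c, a subunit shared with RNA polymerase III, had ratios of 0.951 and 0.918, and Polr1e of 0.961 and 1.18, with intervals that include 1. Taf1d, part of the promoter selectivity factor SL1, was at 183, 160, 146 and 136 CPM, with a ratio of 0.802 between the controls (0.697 to 0.923), further from 1 than with DMAT (0.875) or CX4945 (0.927). Of this role's 7 genes 0 passed the joint test.

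The box C/D snoRNP core carries the methylation of ribosomal RNA. Fbl encodes fibrillarin, the methyltransferase. It was at 423, 461, 490 and 498 CPM, so that the experiments differed more (1.16, 1.07 to 1.26) than the inhibitors from their controls (1.09 and 1.02), but only 12.9% of its reads were unique. With unique reads alone its joint log2 value changed from 0.07 to -0.08. Nop56 was at 965, 881, 914 and 832 CPM, below its control with both inhibitors (0.914, 0.863 to 0.967, and 0.911, 0.854 to 0.971). Of the Nop56 reads 77.4% were unique, and with unique reads alone its joint log2 value changed from -0.13 to -0.08. Its partner Nop58 was at 610, 548, 571 and 621 CPM, with 0.898 (0.836 to 0.965) and 1.09 (1.01 to 1.18). The 2 proteins sit side by side in the same particle, yet their transcripts stood on opposite sides of the control with CX4945. Neither passed the joint test (edgeR adjusted p = 0.785 for Nop56 and 0.988 for Nop58).

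Box H/ACA snoRNPs convert uridine to pseudouridine, and the same 4 proteins also bind the RNA of telomerase. Dkc1 (X chromosome, 72341193 to 72355116 in mm9) encodes dyskerin, the pseudouridine synthase. It was at 437 CPM in the control for DMAT, 375 with DMAT, 436 in the control for CX4945 and 389 with CX4945. The 2 controls agree within counting error (ratio 0.998, 0.917 to 1.09), and both inhibitor libraries were below them, at 0.858 (0.787 to 0.935) and 0.893 (0.812 to 0.981). Dkc1 had the lowest joint estimate of all members, -0.19 ± 0.09 (SE; interval -0.37 to -0.01), with an unadjusted p of 0.0369, and it did not pass after adjustment over all genes (edgeR adjusted p = 0.633). Its partners had ratios of 0.863 and 1.08 (Gar1), 0.943 and 0.969 (Nhp2) and 0.924 and 0.970 (Nop10), each with an interval that includes 1. Of the 4 genes all were below 1 with DMAT (50.0% of all genes) and 3 with CX4945 (50.6%), and 0 passed the joint test.

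Among the abundant nucleolar proteins, Npm1 (chromosome 11, 33052287 to 33063206) was at 5003, 4388, 4505 and 4095 CPM. Each inhibitor library was below its own control, by ratios of 0.877 (0.855 to 0.899) with DMAT and 0.909 (0.883 to 0.936) with CX4945. The untreated libraries differed by 0.900 (0.878 to 0.924), so the DMAT library was close to the control for CX4945. The joint estimate was -0.16 ± 0.07 (SE; interval -0.32 to -0.01; edgeR adjusted p = 0.636, unadjusted 0.0372). Leaving out 1 library without the block moved it to -0.09 (control for DMAT), -0.11 (CX4945), -0.22 (DMAT) and -0.24 (control for CX4945). Of the Npm1 reads 46.2% were unique, since the genome holds many copies of its processed transcript. Npm3, a smaller relative, was at 247, 236, 244 and 213 CPM (59.2% unique).

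Ncl (chromosome 1, 88241294 to 88256030) was at 4693, 4387, 4543 and 4447 CPM, with both inhibitor libraries under both controls, and did not pass (edgeR adjusted p = 0.927). The ratio was 0.935 with DMAT (0.912 to 0.959) and 0.979 with CX4945 (0.952 to 1.01). Ddx21, an RNA helicase that links RNA polymerase I to rRNA processing, was at 1099, 1032, 1136 and 1068 CPM, with nearly the same ratio in each pair (0.939, 0.891 to 0.989, and 0.940, 0.887 to 0.995). Nolc1, which encodes Nopp140, one of the most heavily phosphorylated nucleolar proteins and a known CK2 substrate, was at 769, 769, 850 and 847 CPM. Its transcript was level within each pair (1.00, 0.940 to 1.06, and 0.996, 0.933 to 1.06) and differed between the experiments (1.11, 1.04 to 1.18). Mybbp1a, a MYB-binding nucleolar protein, was at 1205, 1202, 1283 and 1392 CPM. It stood above its control with CX4945 (1.09, 1.03 to 1.14) and was level with it in the DMAT pair (0.997, 0.949 to 1.05). Over these 6 genes 0 passed, with medians of -0.08 and -0.06 and of 0.01 between the controls.

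The 12 genes of small-subunit assembly were mostly below their controls. With DMAT 10 of the 12 had a ratio below 1 (50.0% of all genes) and with CX4945 9 had (50.6%). Both inhibitors had one below 1 at 7 (26.7%). The medians were -0.09 and -0.10. The control for CX4945 was above that for DMAT at 11 of the 12 (median 0.06), where 51.3% of all genes were below. Of this role 0 genes passed the joint test. Heatr1, a large scaffold protein of the small-subunit processome, was at 433, 441, 445 and 389 CPM, low in the CX4945 library alone (0.874, 0.796 to 0.960). Utp14a, which acts with the helicase that frees the U3 snoRNA, showed the same order at 180, 185, 188 and 155 CPM (0.826, 0.712 to 0.957, with 65.2% of reads unique). Wdr43 was at 404, 375, 411 and 387 CPM, with ratios of 0.927 and 0.942. Rrp9, a U3 snoRNP protein, went the other way round, with 0.844 in the DMAT pair (0.729 to 0.976) and 0.992 in the CX4945 pair. Rrp12, an export factor of pre-ribosomes, had 0.918 and 0.869. The remaining members of this role (Nop14, Wdr75, Utp20, Tsr1, Bysl, Nob1 and Ddx10) had ratios between 0.896 and 1.07 and intervals that include 1 in both pairs.

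Genes of large-subunit assembly were split. With DMAT 5 of 10 were below 1 (50.0% of all genes) and with CX4945 4 were (50.6%). The medians were -0.02 and 0.06, beside 0.11 between the controls. Pes1, Bop1 and Wdr12 encode the 3 proteins of the PeBoW complex, which is needed to release the large-subunit rRNAs. Pes1 was at 279, 268, 257 and 238 CPM (68.7% unique) and Bop1 at 248, 249, 273 and 248. Wdr12 was at 180 CPM in the control for DMAT, 148 with DMAT, 178 in the control for CX4945 and 169 with CX4945, so that the DMAT library was the low one. Its ratio with DMAT was 0.818 (0.714 to 0.937), the lowest of any member in that pair, and 0.947 (0.818 to 1.10) with CX4945. With DMAT its partners had ratios of 0.961 (Pes1) and 1.00 (Bop1), with intervals that include 1. None passed the joint test (edgeR adjusted p = 0.925, 0.944 and 0.774 for Pes1, Bop1 and Wdr12). The joint log2 value of Wdr12 was -0.19. Leaving out 1 library without the block gave -0.09 (DMAT), -0.17 (control for DMAT), -0.19 (control for CX4945) and -0.28 (CX4945).

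Gnl3, which encodes nucleostemin, a GTP-binding protein of dividing cells, was at 418, 403, 379 and 397 CPM. Its ratios were 0.966 and 1.05, and 0.907 between the controls (0.829 to 0.991). Ppan and Rrp1b had joint estimates of 0.12 each, the highest after Ubtf. For Ppan it was 0.03 without the control for DMAT, 0.05 without the CX4945 library, 0.18 without the DMAT library and 0.20 without the control for CX4945. Ppan was at 252, 275, 283 and 303 CPM, and the control for CX4945 was above the DMAT library. Rrp1b, at 243, 269, 284 and 301, had the same order. Rrs1 also was higher in the experiment with CX4945, with 143, 145, 174 and 190 CPM. For all 3 genes the ratio between the controls (1.12, 1.17 and 1.22) was larger than that of either inhibitor. Nop2, an rRNA cytosine methyltransferase, had ratios of 0.971 and 1.04, and Nop16 of 1.06 and 0.980. Ebna1bp2 had 0.879 (0.789 to 0.979) and 1.06.

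**Figure D4:**
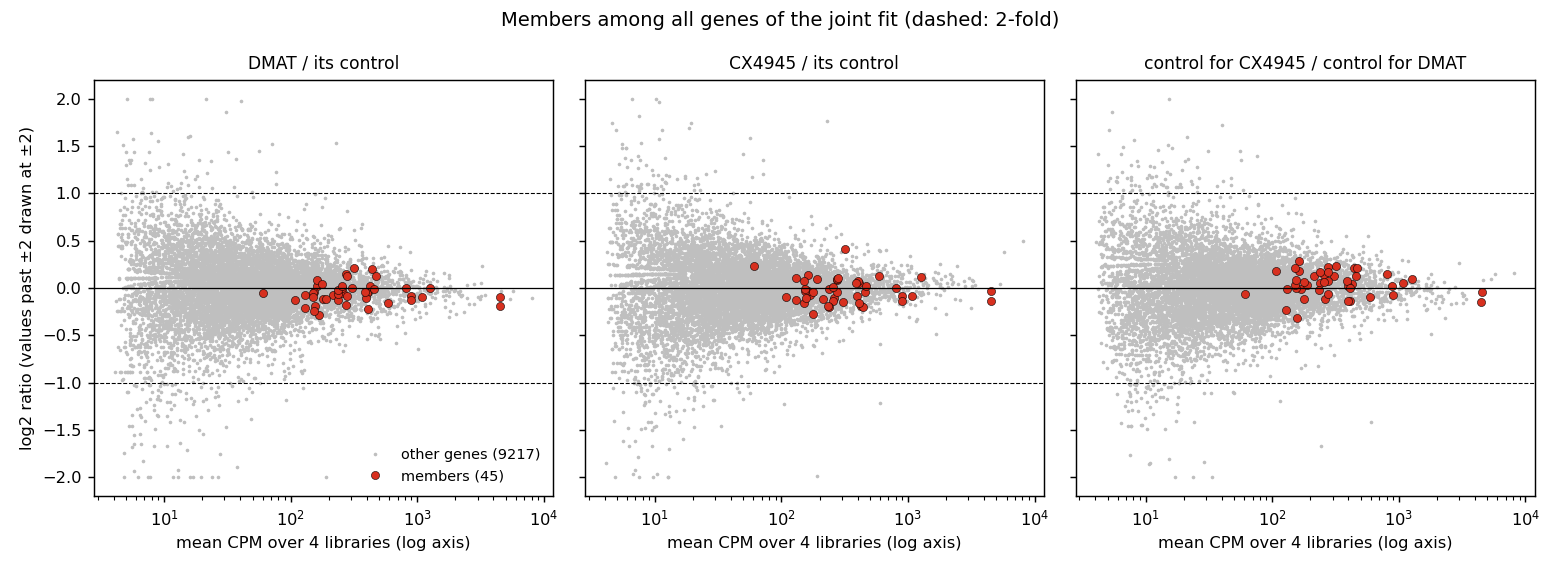
Log2 ratio against mean CPM (log axis) for the 9262 genes of the joint fit in the DMAT pair, the CX4945 pair and between the controls, with the 45 members in red; dashed lines mark 2-fold and values past 2 are drawn at 2. The members sit at the deep end of the range, inside the cloud of the other genes in all 3 panels.

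Among the members, values past counting error were as frequent between the controls of the 2 experiments, without an inhibitor. The counting interval excluded 1 on the low side at 10 members with DMAT and 9 with CX4945, and on the high side at 2 and 3. Between the 2 untreated libraries it excluded 1 on the low side at 6 and on the high side at 8. The share of all genes with such an interval was not counted, and it depends on depth. These counts therefore compare the pairs with each other only. The pair of controls also holds the difference between the experiments, so it does not measure the noise within a pair. The median size of a member's log2 ratio, whatever its sign, was 0.08 with DMAT, 0.10 with CX4945 and 0.10 between the controls. For the 3667 genes of at least the members' lowest depth it was 0.11, 0.11 and 0.12. The value with DMAT was larger in size than the value between controls at 18 of 45 members, and that with CX4945 at 21.

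Reads that cross a junction between exons, and reads inside the gene but outside its exons, were counted as well. The members held 3.146% of all exon-exon reads in the control for DMAT and 2.994% with DMAT. In the other experiment they held 3.088% in the control and 3.029% with CX4945, so the share was lower with an inhibitor within each pair. Exon-exon reads were 30.1%, 29.6%, 30.0% and 30.3% of the members' exon reads in the 4 libraries, and 23.2 to 23.8% over all genes. Reads outside exons, which come from unspliced RNA or from other transcripts in the introns, were 3.86% (3.72 to 4.01), 3.81% (3.66 to 3.97), 3.72% (3.57 to 3.87) and 3.93% (3.76 to 4.10) of the members' gene reads. The intervals overlap, and over all genes the share was 12.4 to 13.0%. Taf1d stood apart with 501, 424, 369 and 323 reads outside its exons beside 504, 406, 335 and 278 inside. Its introns are known to house several small nucleolar RNAs.

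Other genes of the same pathway stood close to their controls as well. Of 42 further small-subunit genes, 51 further large-subunit genes, 12 further genes of RNA polymerase I, 12 of snoRNP assembly and 13 of the RNA exosome, 0 passed the joint test in either direction. Their medians ran from -0.07 to 0.02 with DMAT and from -0.08 to 0.00 with CX4945. The small-subunit list again had more values below 1 than above with DMAT, 30 of 42, and 26 with CX4945. The large-subunit list had 24 and 27 of 51 below 1, and of all genes 50.0% and 50.6% were. At an unadjusted p under 0.05 there were 3 large-subunit genes and 1 exosome gene in the edgeR fit, where 7.09% of all genes passed.

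The MYC network had 0 of 16 tested genes past the joint test, with 2 at an unadjusted p under 0.05 in edgeR, where 7.09% of all genes passed. Max, the partner of MYC, was at 135, 161, 139 and 156 CPM, above both controls with both inhibitors (1.19, 1.03 to 1.37, and 1.12, 0.959 to 1.32), and did not pass (edgeR adjusted p = 0.731). The antagonists that compete for MAX were scarce. Mxd4 had 22, 12, 11 and 16 reads, Mxd1 40, 30, 25 and 32, and Mxi1 30, 34, 27 and 32, and their intervals are wide (for Mxd4 with CX4945 0.708 to 3.87). Mnt had 95, 84, 122 and 99 reads and differed between the controls (1.55, 1.18 to 2.05), with ratios of 0.961 and 0.906 within the pairs.

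Of 32 further MYC target genes 1 fell and 0 rose, where 0.292% and 0.162% of all genes did. At an unadjusted p under 0.05 in edgeR there were 7, 3 higher and 4 lower with an inhibitor, where 7.09% of all genes passed. Hk2, hexokinase 2 of glycolysis, was at 236, 179, 256 and 159 CPM, with ratios of 0.758 (0.671 to 0.856) and 0.619 (0.539 to 0.710) and a joint log2 fold change of -0.54 ± 0.10 (SE; edgeR adjusted p = 0.0271). The call for Hk2 was lost with a minimum of 100 reads in each pair (edgeR adjusted p = 0.166), in DESeq2 (1.000) and without the block (1.000), and without the block when either control (0.999 and 1.000) or the CX4945 library (0.164) was left out, while the log2 value stayed between -0.64 and -0.45. Cad, which starts pyrimidine synthesis, was at 630, 709, 744 and 721 CPM and did not pass (edgeR adjusted p = 0.944). The median of this list was 0.03 with DMAT and -0.06 with CX4945. Of 11 further genes of polyamines and of the amino acid hypusine 0 passed. Their medians were -0.29 with DMAT, 0.01 with CX4945 and -0.14 between the controls. Of these, 2 had an unadjusted p under 0.05 in edgeR, both with lower estimates: Sat1, which marks polyamines for breakdown or export (log2 -0.40, adjusted p = 0.117), and Sms, which makes spermine (-0.23, adjusted p = 0.541).

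The genes of the ribosome's own proteins had one-sided values with CX4945. There 70 of 82 cytosolic ribosomal protein genes had a ratio above 1 (median 0.09), and with DMAT 30 had (median -0.04). In the control for CX4945 29 were higher than in that for DMAT (median -0.04). Below 1 were 50.6% of all genes tested with CX4945, 50.2% with DMAT and 50.7% between the controls. Of the ribosomal protein genes 14.6%, 63.4% and 64.6% were. In the edgeR joint fit 0 passed and 3 had an unadjusted p under 0.05, as did 7.09% of all genes. Of their reads 34.1% were unique, since these genes have many processed copies, and with unique reads 62 of 81 were above 1 with CX4945 (median 0.10). The 76 mitochondrial ribosomal protein genes had medians of -0.01 and -0.05, and 19 genes of RNA polymerase III 0.07 and -0.03, with 0 past the test in each (1 in each at an unadjusted p under 0.05 in edgeR).

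Cdkn1a, the p53 target that halts the cell cycle when ribosome assembly is disturbed, was at 129, 120, 98.8 and 70.8 CPM. Its ratio with CX4945 was 0.717 (0.578 to 0.887), with DMAT 0.928 (0.794 to 1.08) and between the controls 0.764 (0.644 to 0.905). Of 10 tested genes of the p53 response 0 passed, with 1 at an unadjusted p under 0.05 in edgeR. With CX4945 9 of the 10 were below 1 (median -0.15), as were 9 in the control for CX4945 beside that for DMAT (median -0.43). Over all genes 50.6% and 51.3% were below 1. Of 12 proliferation genes 1 fell, the mitotic cyclin gene Ccnb1 (joint log2 -0.65, edgeR adjusted p = 0.0401, 43.7% of reads unique), and the medians of this list were 0.00 and -0.06. At an unadjusted p under 0.05 in edgeR there were 5 of the 12, all with lower estimates: Ccnb1, Plk1 (-0.56), Cdk1 (-0.41), Top2a (-0.24) and Mki67 (-0.20). Of all genes 7.09% passed that level. All 5 were also lower in the control for CX4945 than in that for DMAT, with log2 ratios from -0.52 to -0.18. The call for Ccnb1 was lost with unique reads (log2 -0.48, edgeR adjusted p = 0.355), with the minimum of 100 reads (0.238), in DESeq2 (1.000) and without the block (1.000). Without the block and the control for DMAT its log2 value was -0.37 (adjusted p = 1.000), and without the control for CX4945 -0.89 (0.882) or the DMAT library -0.65 (0.0672).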

How the data were processed

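RNA was measured by sequencing in 4 libraries made from total RNA with a TruSeq kit, per the labels' protocols. The authors deposited, for each library, reads per gene as whole-number counts with no normalization, per the file headers; total exon reads, which include reads that fit several places, were used. The submitters' processing notes name mm9 and CASAVA 1.8.2; aligner, annotation, counting rule and strand are not given in the sources used here. Groups and pairing come from the titles. No label ties libraries to separate animals, and p-values therefore reflect only how these libraries scatter, possibly for technical reasons. No 2 libraries agreed within sampling noise (chi-square per degree of freedom 2.56 to 5.63).

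Library sizes were scaled with TMM (edgeR 4.0.16, R 4.3.3). Log2 ratios used a prior count of 2, while ratios with exact 95% intervals (SciPy 1.17.1) used none. The minimum for a gene was 20 reads in a pair. The joint test was edgeR's quasi-likelihood test with the pair as a block on genes with at least 20 reads in each pair; its SE is the log2 fold change over the square root of F. DESeq2 1.42.0, other scalings, prior counts, read minimums, unique reads, no block and leaving out libraries were tried. Named genes were 20 fixed members, those 1.5-fold apart or past the test, and the 2 highest and 2 lowest joint estimates; other members were named by role, and some after their values were seen. The members and lists were chosen with earlier results of these data known. Promoter sequences are RefSeq's (GRCm38.p6), matched by symbol. One marker gene is not reported here.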

Additional observations from a re-analysis of the deposited data

Results flagged for a closer look

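Myc and Nop58 had values on opposite sides of 1 with the 2 inhibitors, each with a counting interval that excludes 1. The ratio of Myc was 1.15 with DMAT and 0.870 with CX4945. That of Nop58 was 0.898 with DMAT and 1.09 with CX4945. With 1 library in each group, and with dose and experiment differing as well as the compound, the difference between the inhibitors was not tested.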

How the results depend on the processing

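The number of members past the joint test was 0 under all the alternatives run. The members' median log2 ratio with DMAT moved from -0.06 to -0.04 with total exon reads as library size and to -0.09 against the other inhibitor's control, and that with CX4945 from -0.04 to -0.02 with unique exon reads and to -0.01 against the other control. Counts of members below 1 stayed within 1.5 times. The number of genes called over all genes depended on the fit: 42 in the edgeR fit with the block, 1 with no replicate block, 3 in DESeq2 with the replicate block, 3 with a minimum of 100 reads in each pair, 76 with DESeq2 size factors, 89 with total exon reads, 73 with unique exon reads, and, without the block, 120 when the CX4945 library was left out, 105 when the DMAT library was and 1 when either control was, where 1 arm holds a single library assumed to vary like the others. In those fits the sign turned at small estimates: Myc ran from -0.10 to 0.11, Srm reached 0.02 and 0.04, Polr1a -0.01 and -0.02, Polr1b 0.07, Nop58 0.03 and 0.07, Heatr1 0.01, Gnl3 -0.01 and -0.06 and Fbl -0.03, and Fbl was -0.08 with unique reads. Leaving out 1 library moved the estimate by over 1.5 times or turned its sign at 16 of the 22 members named by rule. The exceptions were Odc1, Rrn3, Nop56, Dkc1, Wdr43 and Ddx21. The cause was not tested.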
